A study of Mus musculus with 6 samples.

Results

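Parp9, Parp10, Parp11, Parp12, Parp14, Dtx3l and Zc3hav1 were followed in mouse cardiomyocyte RNA after doxorubicin. They are the antiviral members of the poly(ADP-ribose) polymerase (PARP) family, with Dtx3l, the ubiquitin ligase that partners Parp9. The 7 genes were chosen by name, and all 7 had a row among the 24972 genes of the table. The 6 libraries came from MX1gfp mice, a strain that carries a green fluorescent reporter at the interferon-stimulated gene Mx1 and that both groups shared. There were 3 mice given vehicle, which was phosphate-buffered saline, and 3 mice given 1 intraperitoneal dose of doxorubicin at 25 mg/kg. Doxorubicin is an anthracycline that poisons topoisomerase II, breaks DNA and is toxic to the heart. Ventricular myocytes were collected 48 h later by digestion and gravity settling, which enriches cardiomyocytes without sorting them. Age and sex of the mice were not stated in the labels.

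PARP enzymes take ADP-ribose from NAD and attach it to proteins or nucleic acids. The founding members, such as Parp1, build long chains at broken DNA, whereas most of the genes described here attach a single unit or none. Interferon raises the transcription of several of them through a factor that contains Irf9 and binds a repeated GAAA sequence, the interferon-stimulated response element. Their proteins act against viral RNA, modify the signalling that induced them, and are in turn opposed by enzymes that remove ADP-ribose.

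Values are the normalized read counts per gene that the authors deposited. They summed to between 7217950 and 7500390 in the vehicle libraries and between 5410780 and 6498370 in the doxorubicin libraries. The spacing of the low values put the reads at about 7710000 to 11400000 per vehicle library and 3670000 to 6170000 per doxorubicin library, so depth and treatment cannot be told apart. A member's value rested on about 37.1 reads at the lowest (Parp11, doxorubicin replicate 2) and about 761 at the highest (Parp14, doxorubicin replicate 3). All 10 cardiomyocyte markers were present in every library, with summed values of 636964 to 753051 in the vehicle group and 566424, 188415 and 164597 in doxorubicin replicates 1 to 3. Xist and the Y-linked Ddx3y divided the libraries into a Y-linked class of vehicle replicates 1 and 2 and doxorubicin replicate 2, and an Xist class of the other libraries. Of 12477 genes tested with limma, 0 passed a Benjamini-Hochberg adjusted p of 0.05 (0%), while 2081 higher and 2404 lower genes had an unadjusted p under 0.05. With all 6 libraries at equal weight no gene is thus called changed, and "higher" and "lower" below describe measured values.

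The members lie on 3 chromosomes, and their positions bear on how they were counted. Parp14 (35831892 to 35871518), Dtx3l (35926515 to 35939027) and Parp9 (35938470 to 35972621) are neighbours on chromosome 16 of GRCm38. Dtx3l and Parp9 run in opposite directions from a shared start region, so that their spans overlap over 558 bases and their annotated exons over 458 bases. That is 8.0% of the exonic length of Dtx3l and 9.4% of that of Parp9. The use of strand in counting was not stated, and reads in the shared stretch cannot be assigned between them. Zc3hav1 (38305286 to 38355352), Parp12 (39086412 to 39118349) and Parp11 (127446830 to 127514233) lie on chromosome 6. Parp10 (76232995 to 76243440) lies on chromosome 15 and shares 205 exonic bases, 4.8% of its exonic length, with its neighbour Plec on the same strand.

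The RefSeq promoter table of GRCm38.p6 matched 4 of the 7 members, namely Zc3hav1, Parp12, Parp11 and Dtx3l, with 5 start sites because Parp11 has 2. The 250 bases before each start were searched on both strands for GAAANNGAAA, the core of the interferon-stimulated response element, and for TTCNNNGAA, the palindrome of the interferon-gamma-activated site. Across the table, 2.98% of 32851 windows of the same length held the first motif and 7.02% held the second. The sequences below are shown because both matches found in the 5 windows stood before the upstream start of Parp11, the member whose groups overlapped. They are 5′ to 3′ on the gene's strand, cut to bases outside GENCODE exons, and capitals mark the motif letters.
Parp11, chr6:127446590-127446839, plus strand: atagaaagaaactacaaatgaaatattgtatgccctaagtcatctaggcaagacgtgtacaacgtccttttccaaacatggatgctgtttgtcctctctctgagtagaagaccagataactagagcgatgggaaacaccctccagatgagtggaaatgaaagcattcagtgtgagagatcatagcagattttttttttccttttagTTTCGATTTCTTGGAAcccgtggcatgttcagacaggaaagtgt
Zc3hav1, chr6:38354604-38354853, minus strand: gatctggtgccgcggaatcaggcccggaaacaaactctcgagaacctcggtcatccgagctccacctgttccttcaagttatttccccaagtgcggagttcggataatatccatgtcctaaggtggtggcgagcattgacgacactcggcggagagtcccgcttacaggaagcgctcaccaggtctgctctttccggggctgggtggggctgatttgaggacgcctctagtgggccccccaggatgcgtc
Parp12, chr6:39118350-39118472, minus strand: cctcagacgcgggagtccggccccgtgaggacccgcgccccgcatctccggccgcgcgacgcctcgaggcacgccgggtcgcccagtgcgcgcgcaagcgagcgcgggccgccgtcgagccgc
In the Parp11 window the GAAANNGAAA match lay on the opposite strand, as GAAATCGAAA, from 44 to 35 bases before the start. The TTCNNNGAA match, TTCTTGGAA, overlapped it from 37 to 29 bases before the start. The 3 stretches differed in base composition, since GC made up 40.4% of the 250 bases before this Parp11 start, 58.8% before Zc3hav1 and 73.6% before Parp12, against a median of 52.4% over all windows. In the windows not shown, GC was 57.6% before the other Parp11 start and 52.8% before Dtx3l. The Zc3hav1 start used, at 38354603, lies inside the RefSeq span of that minus-strand gene, whose outer end is at 38355352. The bases before that outer end were not searched. The matches are descriptions of letters, and no match says only that these letters are not in that window.

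In the vehicle libraries the members were expressed at different levels. Divided by exonic length, Parp12 was the highest, with 54.3 ± 3.40 normalized counts per kilobase of exon (SD, n = 3), and its lowest library lay above the highest library of every other member. Parp14 at 40.0 ± 2.55, Parp9 at 37.1 ± 3.92, Dtx3l at 34.4 ± 0.730 and Zc3hav1 at 32.9 ± 1.55 counts per kilobase followed in that order, with neighbours that overlapped. Parp10, at 28.4 ± 3.08 counts per kilobase, lay below these 4 without overlap. Parp11 was the lowest at 9.16 ± 0.688 counts per kilobase. In the doxorubicin libraries the levels of the 6 more abundant members overlapped from each to the next, and Parp11 alone stayed apart at 8.68 ± 2.19 counts per kilobase.

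The comparison of doxorubicin with vehicle asked whether these genes differed in the heart cells of treated mice. Of the 7 members, 6 had all 3 doxorubicin values above all 3 vehicle values, where 19.2% of all tested genes did so. The median log2 fold change of the 7 members was 0.55, against -0.0046 over all tested genes. An unadjusted limma p under 0.05 with a positive difference was reached by 5 of the 7, namely Parp10, Zc3hav1, Parp14, Parp12 and Parp9, against 16.7% of all tested genes. After adjustment 0 of the 7 passed. The members were chosen with earlier results of these data known, so these counts describe them and do not test them as a list.

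**Figure D1:**
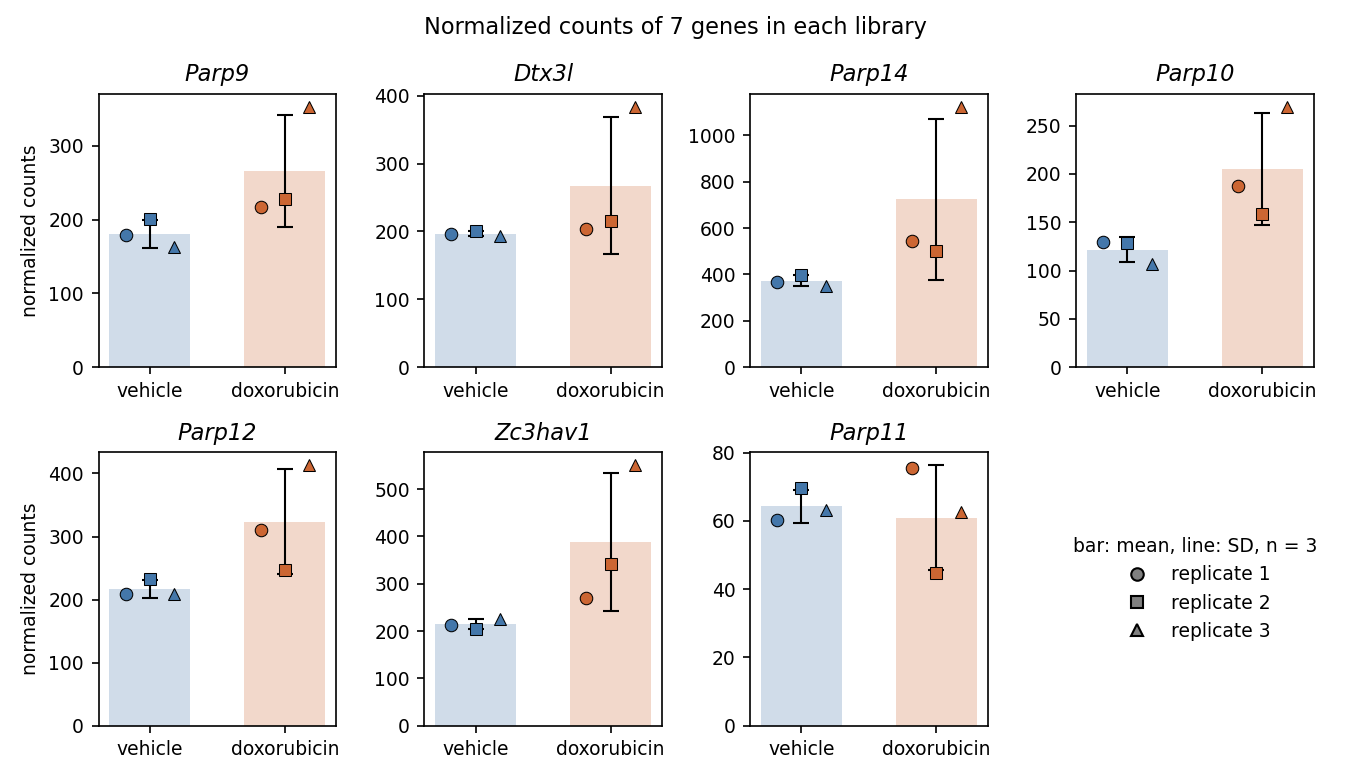
Normalized counts of the 7 genes (vertical axes, each starting at 0) in vehicle (blue) and doxorubicin (orange) libraries, with bars for the mean, lines for the SD over 3 libraries and 1 symbol per replicate. In every gene but Parp11 the lowest doxorubicin point lies above the highest vehicle point, and replicate 3 is the highest.

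Parp9 and Dtx3l are the genes of the paired complex, and Dtx3l had the smallest difference of the 6. Parp9, a macrodomain protein that binds ADP-ribose and works with Dtx3l, had 179, 201 and 163 normalized counts in replicates 1 to 3 of the vehicle group and 217, 228 and 353 in those of the doxorubicin group. The first 2 doxorubicin libraries were close to the upper vehicle value, and the third was 1.96 times the vehicle mean. Its log2 fold change was 0.53 (standard error 0.22, adjusted p 0.127 in limma). Dtx3l, which attaches ubiquitin to histones and other proteins, had 196, 201 and 193 counts under vehicle and 203, 215 and 384 after doxorubicin. Its groups did not overlap, but replicates 1 and 2 exceeded the highest vehicle value by little, and the difference rested on replicate 3. Its log2 fold change of 0.38 (standard error 0.25, adjusted p 0.293) became 0.09 without that library. For Parp9 the value without doxorubicin replicate 3 was 0.30.

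Parp14 had the largest fold change of the members with all 6 libraries at equal weight. It carries several macrodomains, attaches single ADP-ribose units and was first described as a cofactor of Stat6. Its counts were 368, 398 and 351 under vehicle and 543, 502 and 1124 after doxorubicin. All 3 doxorubicin libraries were above the vehicle group, at 1.46, 1.35 and 3.02 times the vehicle mean. The means were 372 ± 23.8 and 723 ± 348 (SD, n = 3 in each group), which differed on the log2 scale by 0.86 (standard error 0.30, adjusted p 0.0962 in limma), and without doxorubicin replicate 3 it was 0.49, below Parp10 at 0.51 and Zc3hav1 at 0.50. With library weights Zc3hav1 (0.79) was also above Parp14 (0.69).

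Parp10 and Parp12 are single-unit transferases of the cytoplasm that slow translation when abundant, and Parp12 carries zinc fingers that bind RNA. Parp10 had 130.0, 128 and 106 counts under vehicle and 187, 158 and 270 after doxorubicin. Its lowest doxorubicin library, replicate 2, was 1.30 times the vehicle mean. The log2 fold change of 0.72 (SE 0.22) had the smallest p of the 7, with a limma adjusted p of 0.0860. Parp12 had 209, 232 and 209 counts under vehicle and 311, 247 and 413 after doxorubicin. Replicate 2 was again the nearest to the vehicle group, at 1.14 times its mean. The log2 fold change of Parp12, close to that of Parp9, was 0.55 (standard error 0.20, adjusted p 0.106). Without doxorubicin replicate 3 it was 0.36 for Parp12.

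Zc3hav1 encodes the zinc-finger antiviral protein ZAP, also called PARP13, which has lost transferase activity, binds CpG-rich RNA and recruits enzymes that degrade it. Its counts were 212, 205 and 225 under vehicle and 270, 341 and 551 after doxorubicin. The 3 treated libraries were spread out, at 1.26, 1.59 and 2.57 times the vehicle mean. The lowest of them, replicate 1 at 270, lay above the highest vehicle value of 225. The means were 214 ± 10.1 and 387 ± 146 (SD, n = 3 in each group), with a log2 fold change of 0.79 (standard error 0.25, adjusted p 0.0878 in limma). Without doxorubicin replicate 3 the log2 fold change of Zc3hav1 was 0.50.

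Parp11 stood apart from the other 6. It is a single-unit transferase of the nuclear envelope that has been linked to the turnover of the interferon receptor. Its counts were 60.2, 69.6 and 63.3 under vehicle and 75.4, 44.8 and 62.7 after doxorubicin. Doxorubicin replicate 1 lay above the vehicle range, replicate 2 below it and replicate 3 inside it. The log2 fold change was -0.11 (standard error 0.24, adjusted p 0.767 in limma), and its sign depended on the scaling, being 0.19 when each library was scaled to the same total. That scaling moved the median of all genes to 0.30, so Parp11 remained below that median.

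Replicate 3 held the highest doxorubicin value in 6 of the 7 members. It was also the library with the fewest estimated reads, about 3670000, and the lowest summed value, 5410780. The members' median difference from the vehicle mean, on the log2 scale, was 0.33, 0.34 and 0.97 in doxorubicin replicates 1 to 3. Replicate 1 was above the vehicle mean in 7 of the 7 members, and replicates 2 and 3 in 6. Without doxorubicin replicate 1, limma passed Zc3hav1 (log2 fold change 1.01, adjusted p 0.00676), Parp14 (1.01, 0.0275), Parp10 (0.77, 0.0347) and Parp9 (0.65, 0.0386), which makes 4 of 7 against 19.3% of all tested genes. Dtx3l and Parp12 then had adjusted p of 0.0968 and 0.0738. Limma's library weights were lowest for doxorubicin replicate 1 (0.277) and next lowest for doxorubicin replicate 3 (0.425). With these weights Zc3hav1 and Parp14 passed, 2 of 7 against 15.7% of all tested genes. Without doxorubicin replicate 3 the members' median was 0.36 in place of 0.55. Within the Y-linked class, which has 1 doxorubicin library, the median log2 difference was 0.27 with 6 of 7 higher. Within the Xist class, which has 1 vehicle library, it was 0.77 with 7 of 7 higher.

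**Figure D2:**
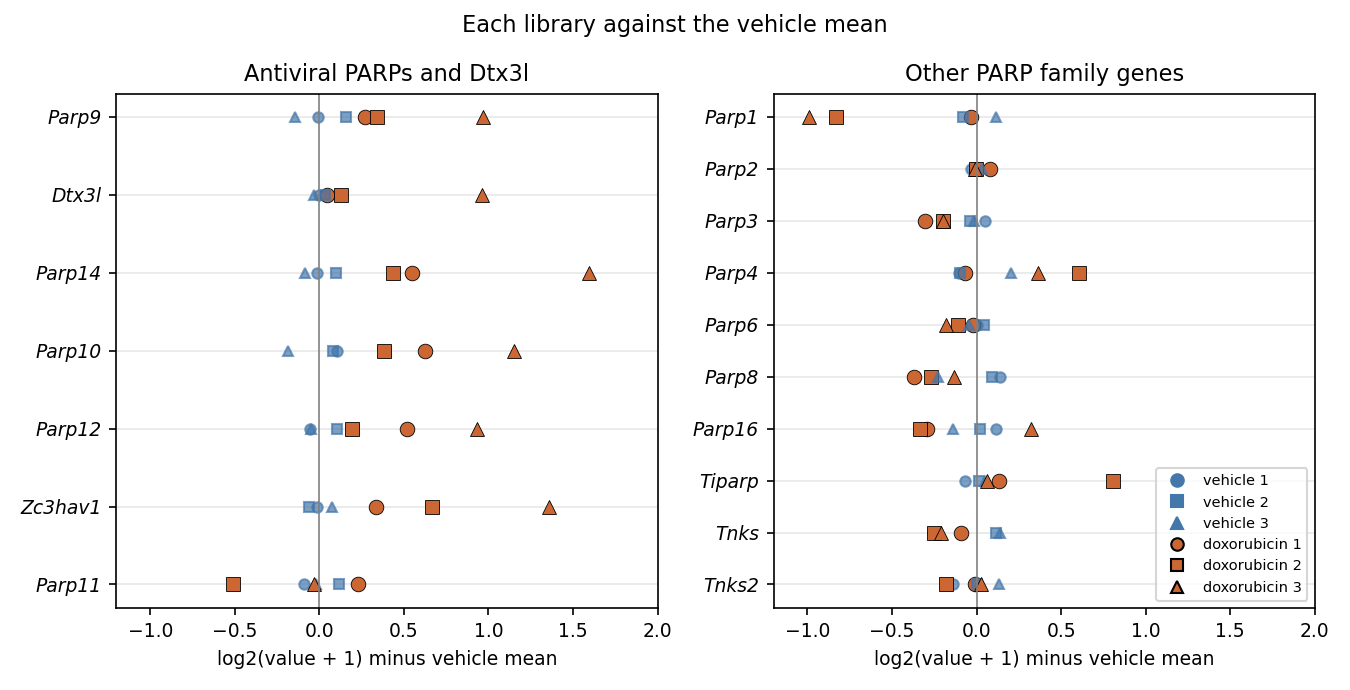
Each library's log2(value + 1) minus the vehicle mean (horizontal axis) for the 7 genes (left) and the 10 other PARP family genes (right), blue for vehicle and orange for doxorubicin, with 1 symbol per replicate. On the left the orange triangles of replicate 3 lie farthest right, near or above 0.93, except in Parp11, while on the right the orange symbols fall on both sides of 0.

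Across the 6 libraries the log2 values of the members other than Parp11 were correlated, with doxorubicin replicate 3 standing far from the rest. Among the 6 other members, Pearson correlations of log2 values ran from 0.86 (Dtx3l with Parp10) to 0.98 (Parp9 with Parp14), whereas those of Parp11 with them ran from -0.28 to 0.19. These correlations are descriptions over 6 libraries that share the treatment contrast and its depth. Among 10025 genes with a mean of at least 50, the 5 whose profile was most like the mean standardized profile of the members were Isg15, Sp100, Nlrc5, Pltp and Zfp366, with correlations from 0.996 to 0.997 over the 6 libraries. Isg15 encodes a ubiquitin-like modifier, Sp100 a nuclear body protein, Nlrc5 an activator of MHC class I genes, Pltp a phospholipid transfer protein and Zfp366 a zinc-finger protein. The counts of Isg15 were 40.4, 47.7 and 40.0 under vehicle and 93.7, 55.1 and 264 after doxorubicin. Those of Sp100 were 339, 383 and 320, then 539, 431 and 924. Both show the order seen in Parp14, Parp10 and Parp12, with replicate 3 the highest and replicate 2 the lowest of the doxorubicin group. The mean profile that these genes were picked to match has the same order, so the shared order comes with the choice.

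The 10 other PARP family genes lay on both sides of the vehicle level. Of these, 3 were higher and 7 lower, with a median log2 fold change of -0.10 and a range from -0.62 to 0.33, and 0 passed the adjusted threshold. With each library scaled to the same total 9 were higher and 1 lower, with a median of 0.20, which was below the median of all genes under that scaling, whereas the members' median was then 0.85. The groups did not overlap in 1 higher gene and 1 lower gene, against 19.2% and 22.6% of all tested genes. Parp1, the main sensor of DNA strand breaks, had 557, 541 and 619 counts under vehicle and 559, 321 and 287 after doxorubicin. Replicate 1 lay within the vehicle range and the other 2 were below it, for a log2 fold change of -0.62 (standard error 0.25, adjusted p 0.126 in limma). Tiparp, a single-unit transferase induced by the aryl hydrocarbon receptor, had 112, 119 and 122 counts under vehicle and 129, 206 and 122 after doxorubicin. It did not overlap, but its peak was in replicate 2 rather than replicate 3, and its log2 fold change was 0.33 (standard error 0.22, adjusted p 0.304).

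Enzymes that remove ADP-ribose, listed together with a relative, Adprhl1, had log2 fold changes from -1.50 to 0.20. Of 7 tested, 3 had a positive and 4 a negative log2 fold change, the median was -0.10, and 4 lay below the vehicle group without overlap, against 22.6% of all tested genes. With equal totals 4 were higher and 3 lower, and without doxorubicin replicate 3, 1 and 6. Adprhl1, a relative of the ADP-ribosylhydrolases found in heart muscle, had 4081, 4399 and 4635 counts under vehicle and 2950, 1485 and 838 after doxorubicin. This was the largest difference of the list, with a log2 fold change of -1.50 (standard error 0.41, adjusted p 0.0859 in limma). The order of its doxorubicin libraries was that of the summed cardiomyocyte markers given above. Fewer cells of a type and less RNA per cell cannot be told apart in such bulk libraries, and the part of cell composition in these values was not tested. Parg, which takes apart ADP-ribose chains, had a log2 fold change of 0.16 (adjusted p 0.547), and -0.01 without doxorubicin replicate 3.

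The genes that act with the members upstream and downstream gave a mixed picture. Of 12 genes of interferon signalling, 10 were higher and 2 lower (11 and 1 with equal totals or quantile normalization), with a median log2 fold change of 0.40. The groups did not overlap in 6 higher genes and 1 lower gene, against 19.2% and 22.6% of all tested genes. Irf9, the DNA-binding part of the interferon-stimulated factor, had means of 143 ± 23.3 and 276 ± 58.1 counts (SD, n = 3 in each group) and a log2 fold change of 0.94 (standard error 0.20, adjusted p 0.0859 in limma). Irf1, a transcription factor induced by interferon gamma, had the smallest p of the list, with a log2 fold change of 0.96 (standard error 0.20, adjusted p 0.0859). Stat2, another part of that factor, differed by 0.85 (standard error 0.34, adjusted p 0.122). Without doxorubicin replicate 3 Stat2 differed by 0.42, and the median of the list was 0.24. Of the 20 genes listed as partners of ZAP or RNA decay enzymes, 11 were higher and 9 lower, with a median of 0.03, and with equal totals 18 and 2. Trim25, the ubiquitin ligase that ZAP needs, led that list, with 323, 326 and 295 counts under vehicle and 436, 694 and 952 after doxorubicin. Its log2 fold change was 1.07 (standard error 0.27, adjusted p 0.0859 in limma), and its doxorubicin libraries stood in the same order as those of Zc3hav1. Of the 3 other Deltex ligases tested, 0 were without overlap, against 19.2% higher and 22.6% lower of all tested genes. Dtx4 differed most, by 1.38 (standard error 0.63, adjusted p 0.155 in limma), or by 2.15 without doxorubicin replicate 1.

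A list of 30 other interferon-stimulated genes gave the nearest comparison. All 30 had a positive log2 fold change, of 0.40 to 2.76 (median 1.04), though in doxorubicin replicate 2 only 26 lay above the vehicle mean. The groups did not overlap in 22, against 19.2% of all tested genes. Without doxorubicin replicate 3 the median was 0.64. Against the vehicle mean, replicates 1 to 3 of the doxorubicin group had medians of 0.76, 0.53 and 1.80, so that replicate 3 was the highest and replicate 2 the lowest, while the members' median was nearly equal in replicates 1 and 2. Oasl2, an oligoadenylate synthetase-like protein, had the smallest p of that list, with a log2 fold change of 1.59 (standard error 0.33, adjusted p 0.0859 in limma). Oas3, which makes the activator of RNase L, had the largest fold change at 2.76 (standard error 1.26, adjusted p 0.156), with 203 counts in doxorubicin replicate 3 and 13.3 or fewer elsewhere, and without that library it was 1.24. Parp14, with the largest fold change among the members, lay below the median of this list with all 6 libraries, at 0.86 against 1.04.

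**Figure D3:**
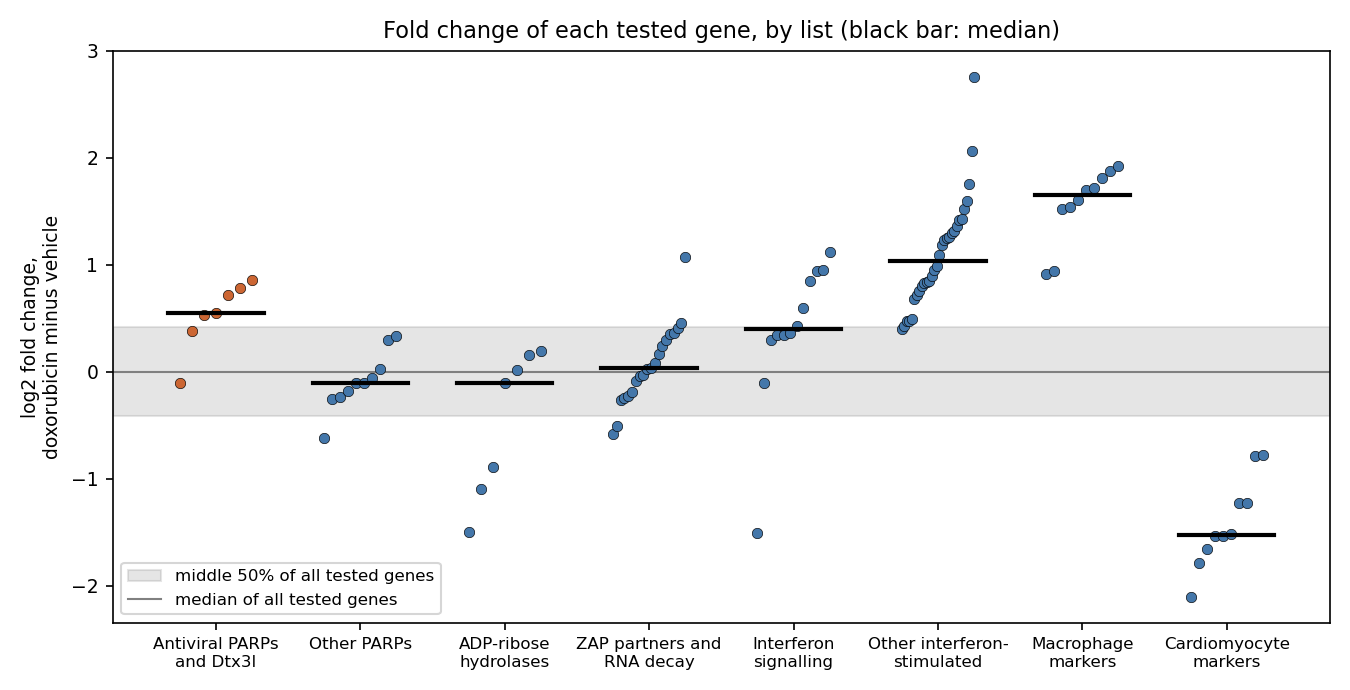
Log2 fold change, doxorubicin minus vehicle (vertical axis), of each tested gene in 8 lists, with black bars for medians and a grey band for the middle 50% of all 12477 tested genes. The members (orange) have a median of 0.55, between the other PARPs at -0.10 and the other interferon-stimulated genes at 1.04.

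Markers of other cell types differed alongside. In 9 of the 10 macrophage markers the doxorubicin values all lay above the vehicle values, against 19.2% of all tested genes. All 10 were higher, by a median of 1.65 on the log2 scale, and by 1.03 without doxorubicin replicate 3. Their summed value was 2350 to 2509 under vehicle and 3835, 6815 and 15001 in doxorubicin replicates 1 to 3, and 0 of the 10 were at 0 throughout. Of 10 endothelial markers 9 were higher (10 with equal totals or quantile normalization), with a median of 0.77 and sums of 15436 to 19931 against 25416, 27405 and 34433. Of 10 fibroblast markers 9 were higher, with a median of 0.84 and sums of 14493 to 17902 against 21144, 55831 and 44878. Neutrophil markers summed to 10.5 to 21.7 under vehicle and 55.0, 563 and 419 after doxorubicin. Of 10 cardiomyocyte markers, all 10 were lower, with a median of -1.53, and 8 were lower under quantile normalization. Replicate 3 was thus the highest library for both the macrophage sum and 6 of the members. The macrophage, fibroblast, endothelial and neutrophil sums were larger in doxorubicin replicate 2 than in replicate 1. Parp9, Dtx3l and Zc3hav1 were also higher in replicate 2 than in replicate 1, and Parp14, Parp10 and Parp12 were lower. The part of these cells in the members' values was not tested.

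**Figure D4:**
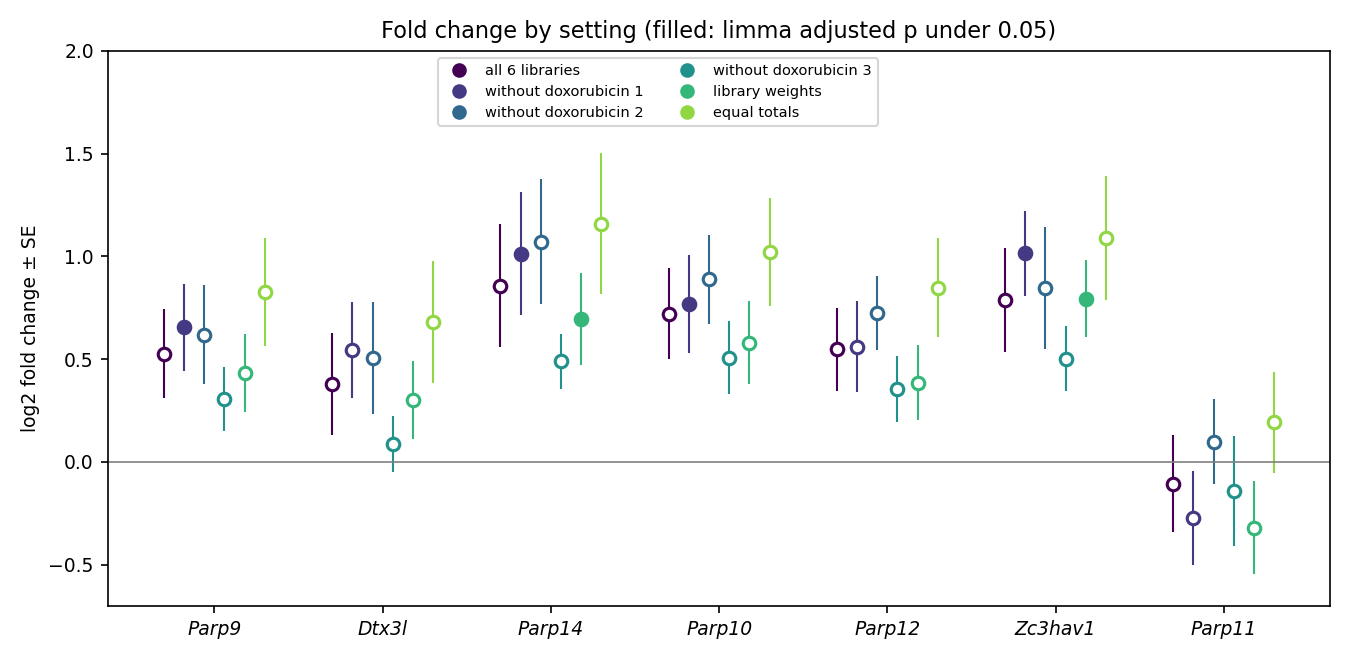
Log2 fold change ± SE from limma (vertical axis) for each gene with all 6 libraries, without each doxorubicin library, with library weights and with equal totals, filled where the adjusted p was under 0.05. Filled points occur without doxorubicin replicate 1 (Parp9, Parp14, Parp10 and Zc3hav1) and with library weights (Parp14 and Zc3hav1), and the lowest value of Dtx3l, 0.09, is without replicate 3.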

How the data were processed

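The authors deposited 1 table of normalized counts, a signal that is never negative, with 1 column per library and no pooling. Per the labels, reads were aligned with STAR in BaseSpace to mm10 with RefSeq genes, and the submitters' processing notes name STAR 2.6.1a and Salmon. How values were normalized or filtered, and whether strand was used, is not given in the sources used here. Of the low values, 80.3% (doxorubicin replicate 3) to 92.5% per library lay within 0.1 step of a whole multiple of 1 read's worth, which is too few for a count test.

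Values were used as deposited. Genes with a mean of at least 10 were tested as log2(value + 1) with limma 3.58.1 in R 4.3.3 (mean-dependent prior variance, two-sided, Benjamini-Hochberg over 12477 genes, threshold 0.05). The pseudocount of 1 understates the change of low genes. The fit was run on simulated data with the same dispersion in both groups and no deviating library. These data differ from that, so the run checks the code and not how the fit behaves here. With 3 against 3 an exact permutation test cannot go below 0.1, so none is given, and p-values measure the spread between these mice. Exonic lengths came from GENCODE M21 and coordinates, counted from 1, from RefSeq on GRCm38.p6. Plots used matplotlib 3.10.9 (Python 3.11.15).

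Members and gene lists were chosen with earlier results of these data known. Named genes were the 7 members, the gene with the smallest p and the one with the largest fold change of each other list, Parp1, Tiparp, Stat2, Irf9 and Trim25, 1 further gene that is not reported here, and the 5 genes most like the members. Parg and Sp100 were shown as examples chosen after their values were seen. Lists of mural (7 tested), erythroid (4 tested) and lymphocyte (0 tested) markers were also checked. Mural and erythroid medians were -0.09 and -0.85, and 0 genes passed. The erythroid median hides a spread, as the erythroid sum was 1212 to 2105 under vehicle and 9027, 250 and 421 in doxorubicin replicates 1 to 3. Alternatives changed 1 choice at a time: pseudocount, filter, scaling, moderation, library weights, replicate block, Xist or Y-linked class, and each library left out.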

Additional observations from a re-analysis of the deposited data

How the results depend on the processing

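Of 17 alternatives, 14 passed 0 genes. The overlap of the groups can change only with the scaling or, toward less overlap, when a library is left out. The same 6 members stayed above the vehicle group with equal totals, where 36.8% of all tested genes did, and with quantile normalization, where 17.9% did; without doxorubicin replicate 1 the share of all genes was 31.6%. Library weights passed 1954 higher and 2318 lower genes, Parp14 (0.69, adjusted p 0.0404) and Zc3hav1 (0.79, 0.0120) among them. Leaving out 1 library passed 0 to 2409 higher and 0 to 2718 lower genes, the highest numbers without doxorubicin replicate 1 and a single lower gene without doxorubicin replicate 2. The members' median ran from 0.36 to 0.72 over those fits and from 0.43 to 0.85 over the others. For the 6 members other than Parp11, whose groups do not overlap, the sign was fixed in nearly all fits, and adjusted p ran from 0.00676 (Zc3hav1) to 0.709 (Dtx3l). Parp11 changed sign with equal totals (0.19) and without doxorubicin replicate 2 (0.10); over the fits that leave out 1 library it ran from -0.27 to 0.10.

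With the replicate number as a block, 0 genes passed and the smallest adjusted p was 0.115; the members' median of 0.55 was unchanged by construction. Same-numbered libraries deviated from their group means with correlations of -0.13 to 0.03, and 0 of 6 libraries correlated best with their own number, so the numbers were not taken as pairs. Parp11 rested on the fewest estimated reads of the members, 37.1 to 94.8 per library.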

Other observations

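The receptors of interferon gamma, which lie upstream of several of these genes, went opposite ways. Ifngr1, the ligand-binding chain, had 478, 490 and 392 normalized counts under vehicle and 601, 1271 and 1232 after doxorubicin, a log2 fold change of 1.12 (standard error 0.29, adjusted p 0.0859 in limma). Ifngr2, the signalling chain, had 1781, 1735 and 1907 counts under vehicle and 1299, 366 and 539 after doxorubicin, a log2 fold change of -1.51 (standard error 0.41, adjusted p 0.0859). In both genes the groups did not overlap, against 19.2% higher and 22.6% lower of all tested genes. Doxorubicin replicate 1 was the nearest to the vehicle group in both. The limma adjusted p of 0.0859 was the smallest of any gene with all 6 libraries at equal weight. Among enzymes that remove ADP-ribose, Macrod1, which takes single units off proteins, was named after its values were seen: it had 1948, 1844 and 1923 counts under vehicle and 1467, 903 and 536 after doxorubicin, a log2 fold change of -1.09 (standard error 0.33, adjusted p 0.0859).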
